A study of Rattus norvegicus with 8 samples.

Results

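Cyp19a1, Hsd17b1 and Esr2 are 3 genes of oestrogen synthesis and reception in the ovary. They were found as the probe sets, groups of short oligonucleotides that measure a transcript on an Affymetrix array, whose platform annotation names exactly 1 of these symbols. This gave 3 of 14217 named genes and 5 of 31099 probe sets, with 3 probe sets for Cyp19a1 and 1 each for Hsd17b1 and Esr2. RNA of granulosa cells from rat ovarian follicles was measured on 8 single-colour arrays. According to the design text, immature rats were given eCG (equine chorionic gonadotropin, a hormone that makes follicles grow) and, after 24 h, received anti-eCG antibody, which sends follicles into atresia, the degeneration of a follicle, or pre-immune serum. Oocytes of the anti-eCG animals gave 0% development to term (called poor developmental competence), and those of the pre-immune serum animals 30 to 50% (normal developmental competence). The array labels carry only a number, so no array could be assigned to the antibody or the serum, and the values below describe 8 unassigned arrays named by that number. The labels do not say whether arrays came from separate animals or pools, so p-values refer to pairings of these arrays only. A correlation can mix a difference between antibody and serum arrays with covariation within each, and these cannot be told apart here.

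Aromatase, the product of Cyp19a1, turns androgens into oestrogens and in the follicle is made by granulosa cells under the drive of follicle-stimulating hormone. The androgens come from the neighbouring theca cells, which carry Cyp17a1. Hsd17b1 reduces the weak oestrogen oestrone to oestradiol, the last step of the pathway, and Esr2 encodes oestrogen receptor beta, the main oestrogen receptor of granulosa cells.

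Signals are given after each array was scaled to a common median, in the arbitrary units of the scanner. The floor is the 40th percentile of an array, and below it signals were not ordered. It ran from 273 on array 2197 to 471 on array 2195. Of 7 granulosa markers 6 were measured (Foxl2, Inha, Inhba, Amh, Fst and Nr5a2) and a summed signal of 239909.7 on array 2199 to 298491 on array 2074. Fshr, the receptor for follicle-stimulating hormone, was not analysed here. Markers of other cell types were measured too. Of 5 macrophage markers 4 were, Lyz2, Csf1r, Cd14 and Cd68, with sums of 4731 on array 2197 to 7876 on array 2196, and Ptprc was too weak. Of 5 theca markers 3 were measured, summing to 47021 on array 2074 and to 75388 on array 2195, nearly all of it Star, which granulosa cells can express as well. Weaker signals, in part under the floor, came from the oocyte markers Zp2 and Gdf9 (2 of 5, sums of 259 to 1878). The same held for the endothelial markers Pecam1 and Tek (2 of 4, sums of 273 to 1964). Zp2 was at the floor on 3 arrays, Gdf9 on 1, Pecam1 on 4 and Tek on 3, so the order of these sums was not read. Zp1, Zp3, Bmp15, Hhip and Kdr were too weak to be measured. Of 3 red cell markers 2 were measured, and they summed to 3797 on array 2197 and to 48897 on array 2074. In RNA from many cells, fewer cells of a type and less RNA per cell cannot be told apart.

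By its brightest probe set, 1382425_at, Cyp19a1 was highest on array 2198 and lowest on 2076, with 2196 and 2074 next lowest. That probe set gave 20564 on array 2198, 15060.4 on 2195, 12760.4 on 2199, 11168 on 2194 and 10318 on 2197. The remaining arrays had 6422 on 2074, 3582 on 2196 and 987 on 2076. On every array these signals exceeded the floor, at percentiles of 68.3 on array 2076 to 97.9 on array 2198. The full range over the 8 arrays was 20.8-fold. The inner range, the second highest over the second lowest array, which disregards 1 array at each end, was 4.20-fold. Of the 10513 measured genes 29.8% reached 2-fold in this measure and their median was 1.71-fold, and Cyp19a1 varied more widely than 99.0% of them. These ranges were taken with the floor, which narrows those of weak genes. Without it 39.6% of measured genes reached 2-fold, while Cyp19a1 stayed at 4.20-fold. With the mean of all 3 Cyp19a1 probe sets on the log2 scale, the third of them at the floor throughout, the inner range was 2.19-fold. The inner range of the brightest narrowed to 2.35-fold when array 2076 was left out, and equally when array 2196 was. Over arrays 2194 to 2199, whose label numbers follow each other, it was 1.46-fold.

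The second Cyp19a1 probe set, 1379643_at, placed the arrays in nearly the same order with smaller differences. It gave 2512 on array 2198, 1501 on 2195, 1282 on 2199 and 1280.5 on 2194, followed by 983 on 2074, 960.3 on 2196, 786 on 2197 and 313 on 2076. Array 2198 was thus highest and array 2076 lowest by both probe sets, and 26 of the 28 pairs of arrays stood in the same order. Both exceptions involved array 2197, which ranked above 2074 and 2196 by the brightest probe set and below them by the second. The inner range of the second probe set was 1.91-fold and the full range 8.02-fold. Its inner range was wider than that of 64.7% of measured genes, with the floor applied. A log2 unit in the brightest probe set went with 0.56 log2 units in the second. On array 2076 the second probe set stood near the floor of 294, at percentile 41.5.

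Agreement between the brightest and second probe sets of Cyp19a1 gave a Pearson r of 0.91 over 8 arrays (two-sided exact permutation p = 0.00255, Benjamini-Hochberg adjusted p = 0.00766 over 3 pairs). Spearman's rho was 0.93 (exact p = 0.00223, adjusted p = 0.0067). Without array 2076 r was 0.72 (exact p = 0.072). Without the 2 arrays farthest from the median, 2076 and 2196, r was 0.82 (exact p = 0.0569) and rho 0.94 (exact p = 0.0167, adjusted p = 0.05). Over arrays 2194 to 2199, r was 0.69 (exact p = 0.14, adjusted p = 0.21) and rho 0.94 (exact p = 0.0167, adjusted p = 0.05). In both of these sets of 6 arrays rho stayed high, but neither its adjusted p nor that of r was under the threshold of 0.05. No rho is given for the set without array 2076 alone.

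The third Cyp19a1 probe set, 1369444_at, carried no usable signal. It gave 252 on array 2198 and 16.8 to 69.2 on the other 7 arrays. All 8 values were below the floor, at percentiles of 2.99 to 30.7. Its order over arrays was therefore not read.

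**Figure D1:**
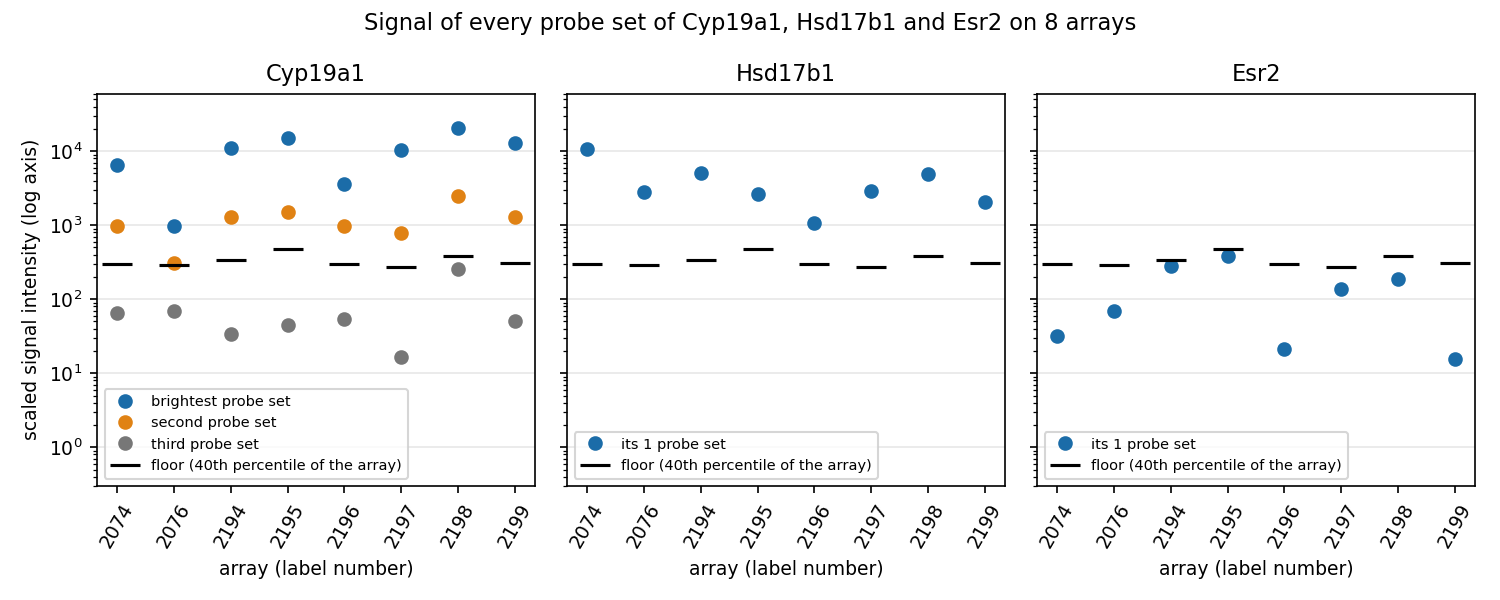
Scaled signal (log axis, arbitrary units) of the 5 probe sets of Cyp19a1, Hsd17b1 and Esr2 on each of the 8 arrays, which are unassigned and stand in the order of their label numbers. Horizontal marks give the floor of each array. The brightest Cyp19a1 probe set drops to 987 on array 2076, Hsd17b1 peaks at 10804 on array 2074, and Esr2 and the third Cyp19a1 probe set lie under the floor throughout.

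Hsd17b1 followed another order than Cyp19a1. Its only probe set, 1369292_at, gave 10804 on array 2074, 4993 on 2194 and 4949 on 2198. Signals of 2881 on 2197, 2768 on 2076 and 2616 on 2195 came next, then 2049.8 on 2199 and 1069 on 2196. Array 2074 thus stood above the other 7 and array 2196 below them, while the 3 middle arrays were within a narrow band. All values were above the floor, at percentiles of 70.0 to 96.0. The full range was 10.1-fold and the inner range 2.44-fold, wider than in 87.0% of measured genes with the floor applied. Over arrays 2194 to 2199 the inner range of Hsd17b1 was 2.41-fold. The summed red cell markers were also highest on array 2074, and their part in the Hsd17b1 signal was not tested.

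Across the 8 arrays, Cyp19a1 and Hsd17b1 had a Pearson r of 0.24 (two-sided exact permutation p = 0.551, adjusted p = 0.666) and a Spearman rho of 0.095 (exact p = 0.84, adjusted p = 0.882). They stood in the same order in 15 of 28 pairs of arrays. The relation varied with the arrays used. Over arrays 2194 to 2199 r was 0.79 (n = 6, exact p = 0.0583, adjusted p = 0.175) with a rho of 0.37 (exact p = 0.497). Without arrays 2076 and 2196, those farthest from the median of Cyp19a1, r was -0.52 (exact p = 0.276) and rho -0.49 (exact p = 0.356). No covariation of both genes was thus resolved with these arrays, and neither was its absence. The second Cyp19a1 probe set gave an r of 0.18 with Hsd17b1 (exact p = 0.666) and a rho of 0.071 (exact p = 0.882). Among all other measured genes, 42.6% had a higher r with Cyp19a1 than Hsd17b1 had.

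**Figure D2:**
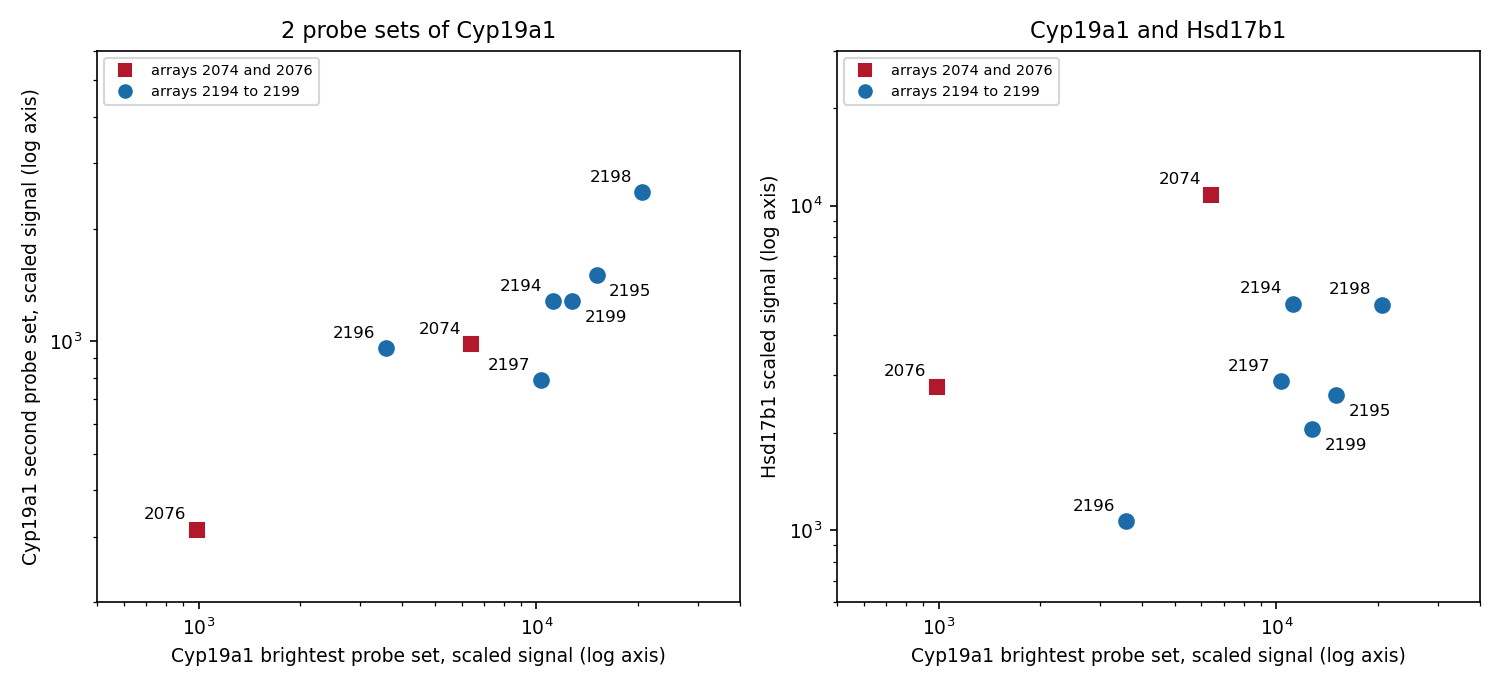
Each point is 1 of the 8 arrays, with scaled signals on log axes in arbitrary units. The left panel sets the second against the brightest probe set of Cyp19a1 (r = 0.91), and the right panel sets Hsd17b1 against the brightest probe set of Cyp19a1 (r = 0.24). Squares mark arrays 2074 and 2076, and circles arrays 2194 to 2199. Array 2076 lies apart at the low end of both panels' horizontal axes.

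Esr2 was not measurable on these arrays. Its probe set, 1369760_a_at, gave 388 on array 2195, 284 on 2194, 186 on 2198 and 139 on 2197, then 69.1 on 2076, 32.3 on 2074, 21.4 on 2196 and 15.8 on 2199. Every value was under the floor of its array, at percentiles of 1.78 to 35.8. No range or correlation was therefore given for Esr2. A signal this low bounds what the probe set could detect and does not show that the receptor's mRNA was missing. The receptors Esr1 (oestrogen receptor alpha) and Gper1 (a membrane oestrogen receptor) were also too weak to be measured.

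The other genes of the pathway were read from 6 lists holding 63 genes, Cyp19a1, Hsd17b1 and Esr2 included. Of these, 49 were measured, 9 were too weak, and 5 were not analysed here. Besides Esr2, Esr1 and Gper1, the weak ones were Ncoa2, Hsd17b2, Hsd17b6, Hsd17b13, Cyp1a1 and Ugt2b1. The inner range reached 2-fold in 23 of the 49 measured members (46.9%), and in 21 of 47 (44.7%) when Cyp19a1 and Hsd17b1 were left out, beside 29.8% of all measured genes. In 12 of the 49 members at least 1 array was at the floor, 7 of them among the 23. The inner range of these is a lower bound where the floor raised the second lowest array. The lists were chosen with earlier results of these arrays known, and no test was made of their counts.

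In oestrogen synthesis and its partners, all 10 genes were measured and 6 reached 2-fold, beside 29.8% of all measured genes. The median of the list was 2.12-fold. Cyp17a1, the theca enzyme that makes androgens, was at the floor on 5 arrays, and its inner range was a lower bound of 2.24-fold. It gave 1159 on array 2198, 658 on 2074 and 374 on 2199, and 43.5 to 318 on the others. Hsd17b3, which makes testosterone in the testis, was at the floor on 6 arrays and above it only on 2194 and 2195. Its inner range was a lower bound of 2.10-fold. Without array 2194 or without array 2195 it was 1.30-fold, a ratio of array floors that does not measure Hsd17b3 signal. Hsd3b1, which turns pregnenolone into progesterone, had the narrowest inner range, 1.36-fold around a median of 211219. The electron carrier Cyb5b had an r of -0.76 with Cyp19a1 (unadjusted exact p = 0.0218, rho -0.67), with its highest signal, 4173, on array 2076 where Cyp19a1 was lowest. Por, the reductase that passes electrons to aromatase, was also highest on array 2076 by its brightest probe set, at 7777, with 2125 to 5325 on the others. By its other probe set array 2195 was highest, at 1014, with 948 on array 2076. The r of the brightest Por probe set with Cyp19a1 was -0.72 over 8 arrays (exact p = 0.0508, rho -0.57) and -0.12 over arrays 2194 to 2199.

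Among 17-beta-hydroxysteroid dehydrogenases of other roles, 4 of 8 were measured and 0 reached 2-fold, beside 29.8% of all measured genes. Hsd17b10, a mitochondrial enzyme, had an inner range of 1.61-fold, Hsd17b8 1.54-fold and Hsd17b11 1.48-fold. Hsd17b4, a peroxisomal enzyme that oxidises oestradiol, was narrowest at 1.35-fold, with 4679 to 8377 over the arrays. All 4 thus varied less than the median measured gene, 1.71-fold, and less than Hsd17b1 at 2.44-fold.

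Of the genes of oestrogen conjugation and clearance, 4 of 8 were measured and 3 reached 2-fold, beside 29.8% of all measured genes. Sult1e1, which adds sulfate to oestrogens and so inactivates them, gave 10856 on array 2198, 7879 on 2076, 5911 on 2196 and 4863 on 2197. The lower arrays had 4014 on 2194, 2869 on 2195, 2297 on 2074 and 1354 on 2199, for an inner range of 3.43-fold. The array with the most Cyp19a1 signal, 2198, thus had the most Sult1e1 signal as well, but array 2076, lowest for Cyp19a1, came second, and r between both genes was -0.28 (exact p = 0.503, rho -0.14). Sult1a1, a phenol sulfotransferase, had an inner range of 2.31-fold, which was 1.53-fold without array 2198 or without array 2199. Sts, which removes sulfate from steroids, was at the floor on 3 arrays with at least 2.29-fold. Cyp1b1, which hydroxylates oestradiol, was at the floor on 3 arrays as well, with at least 1.85-fold.

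Among oestrogen receptors and cofactors, 8 of 13 were measured and 4 reached 2-fold, beside 29.8% of all measured genes. Esrrb, an orphan receptor related to the oestrogen receptors, had at least 2.34-fold with 1 array at the floor. Phb2, a repressor of oestrogen receptor activity, had 2.22-fold, from 5055 on array 2199 to 16776 on array 2076. Its other probe set had 2.26-fold in another order, from 617 on array 2197 to 1880 on array 2198. Esrra, another orphan receptor, had 2.14-fold, and the corepressor Ncor1 was narrowest at 1.20-fold, with 1.70 and 1.97-fold by its other probe sets. Nrip1, a coregulator of nuclear receptors, had an r of 0.74 with Cyp19a1 (exact p = 0.0369, rho 0.69), with 2567 on array 2199 and 998 on array 2076. The coactivator Ncoa3 had an r of -0.72 (exact p = 0.0315, rho -0.69), and it was at the floor on arrays 2195 and 2198.

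All 12 factors known to act on the aromatase promoter were measured, and 4 reached 2-fold, close to the 29.8% of all measured genes. Foxo1, a forkhead factor that represses aromatase in cultured granulosa cells, gave 12314 on array 2074, 6311 on 2076 and 4019.9 on 2198. The others were lower, with 3157 on 2194, 1958 on 2196, 1931 on 2195, 1457 on 2197 and 1387 on 2199. Arrays 2074 and 2076 stood above the other 6, so the inner range of 4.33-fold was 2.76-fold without array 2074 or without array 2076. Foxo1 had an r of 0.74 with Hsd17b1 (exact p = 0.035, rho 0.62) and of -0.39 with Cyp19a1 (exact p = 0.35, rho -0.36).

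Nr5a1 (steroidogenic factor 1), a nuclear receptor that activates steroidogenic genes, gave 3942 on array 2074 and 1985 on 2076. On the others it gave 1937 on 2199, 1403 on 2196, 1222 on 2194, 1088 on 2197, 632 on 2198 and 223 on 2195, the last under the floor. Arrays 2198 and 2195, the highest for Cyp19a1, were thus the lowest for Nr5a1, and r between them was -0.52 (exact p = 0.193, rho -0.71). Its inner range was 3.14-fold, and 1.82-fold without array 2195 or without array 2198. The related receptor Nr5a2 was the narrowest of the list at 1.24-fold, with a median of 43015. The zinc finger factor Gata6 had at least 2.87-fold, from 380.5, under the floor of array 2195, to 1984 on array 2074. Its other probe set reversed these ends, with 1328 on array 2195 as its highest and 209, under the floor, on array 2074. The order of the arrays for Gata6 was therefore not settled. Gata4, a factor related to Gata6, had 2.22-fold, which was 1.34-fold without array 2074 or without array 2076. Ctnnb1, which encodes beta-catenin, had an r of -0.73 with Hsd17b1 (exact p = 0.0426, rho -0.69) and was lowest on array 2074, at 69260.3. Another of its probe sets, above the floor on all 8 arrays, was lowest on array 2199, at 34667, with 40347 on array 2074.

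Of 12 oestrogen-responsive genes, 11 were measured and 6 reached 2-fold, beside 29.8% of all measured genes. Ctsd, which encodes the lysosomal protease cathepsin D, gave 5555 on array 2074 and 4814 on 2076, and 812 to 2099 on the other 6. Its inner range of 4.41-fold was therefore 1.92-fold without array 2074 or without array 2076. The r of Ctsd with Cyp19a1 was -0.41 over 8 arrays (exact p = 0.321, rho -0.024) and 0.88 over arrays 2194 to 2199. Lhcgr, the luteinizing hormone receptor, gave 3662 to 3729 on arrays 2074, 2197, 2198 and 2199. Lower signals were 1832 on 2194, 1726 on 2195, 1008 on 2076 and 753 on 2196. Arrays 2076 and 2196 were also the lowest for Cyp19a1, but array 2195, next lowest for Lhcgr, was second highest for Cyp19a1. The r of Lhcgr with Cyp19a1 was 0.68 (exact p = 0.0493, rho 0.48). Its inner range of 3.67-fold was 2.14-fold without array 2076 or without array 2196. Inha, the inhibin alpha subunit, had 2.33-fold, and the growth factor receptor Igf1r was narrowest at 1.23-fold. Ccnd2, which encodes cyclin D2 of the cell cycle, had an r of 0.82 with Hsd17b1 (exact p = 0.0124, rho 0.69), with its highest signal, 28633, on array 2074.

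**Figure D3:**
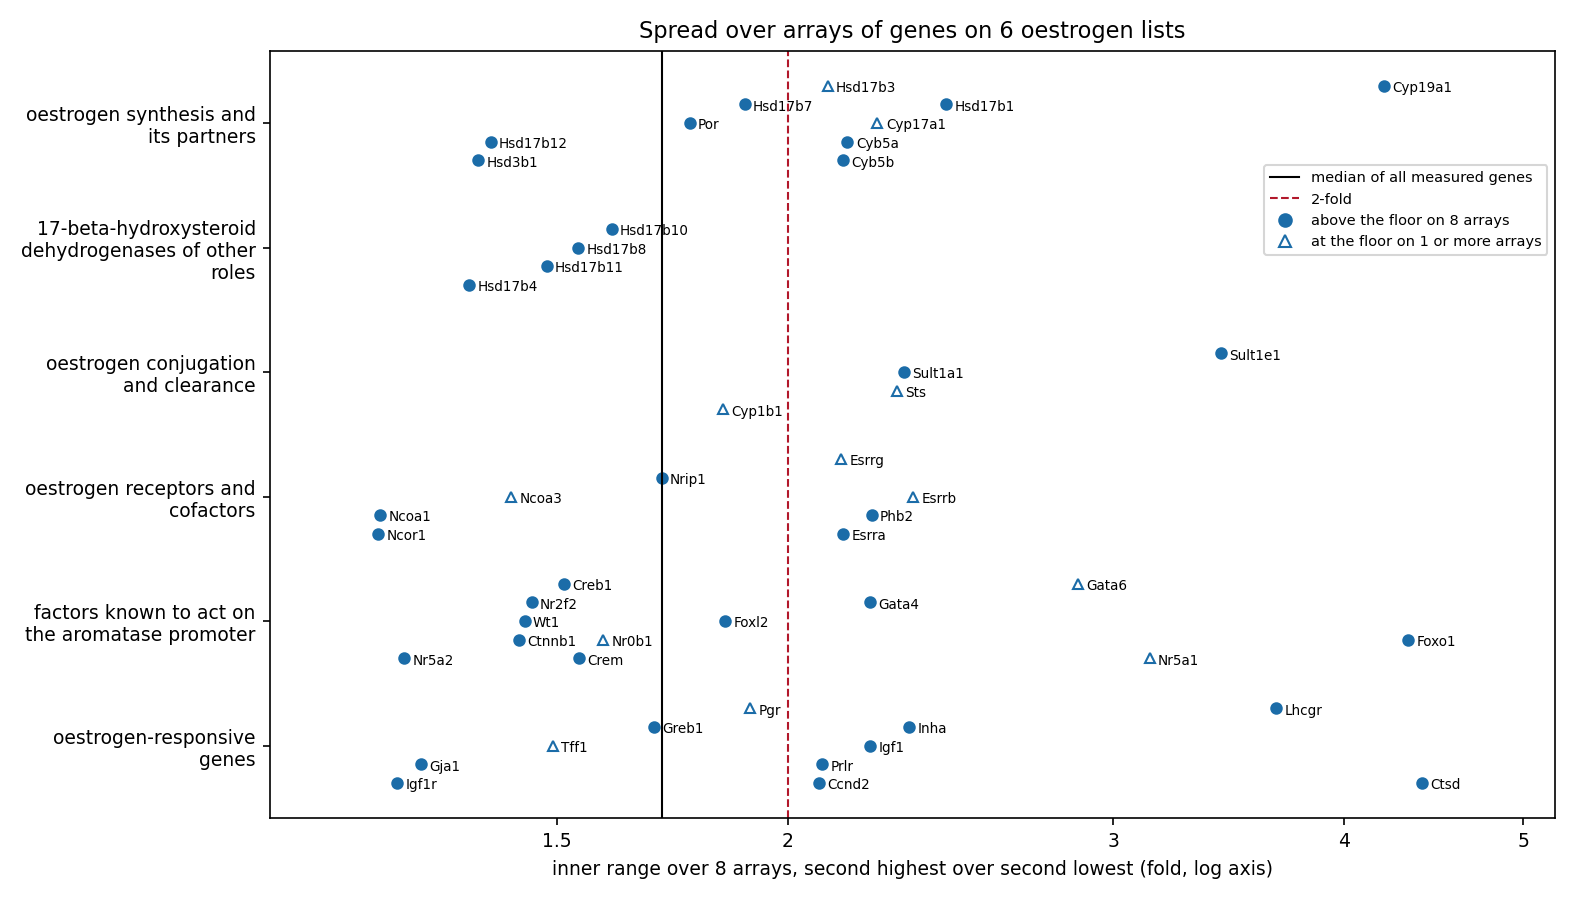
Inner range (second highest over second lowest of the 8 arrays, fold, log axis) of the 49 measured genes on the 6 lists, with 1 row block per list. Filled circles are genes above the floor on all 8 arrays and open triangles genes at the floor on at least 1. The solid line is the median of all measured genes (1.71-fold) and the dashed line marks 2-fold. Ctsd, Foxo1 and Cyp19a1 lie farthest to the right.

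Of the 48 other list members measured, 23 had an r above 0 with Cyp19a1 (47.9%), beside 58.7% of all genes. With Hsd17b1 it was 31 of 48 (64.6%), beside 52.3%. An unadjusted exact p under 0.05 was found with Cyp19a1 for Nrip1 and Lhcgr (positive) and for Cyb5b and Ncoa3 (negative), and with Hsd17b1 for Foxo1 and Ccnd2 (positive) and Ctnnb1 (negative). These are 4 and 3 of 48 members, beside 8.11% and 4.37% of all genes. The adjusted p passed 0.05 for 0 of 48 members with either gene. Without the 2 arrays farthest from the median of Cyp19a1, 2076 and 2196, r was 0.33 for Nrip1, -0.17 for Lhcgr, -0.58 for Cyb5b and -0.61 for Ncoa3, so the sign turned for Lhcgr. Without those farthest for Hsd17b1, 2074 and 2196, r was 0.50 for Foxo1, 0.51 for Ccnd2 and -0.39 for Ctnnb1. The exact p of these 7 was 0.196 to 0.69 over the remaining 6 arrays. Signs were not stable between all 8 arrays and arrays 2194 to 2199. They differed in 20 of 48 members (41.7%) for Cyp19a1 and 13 of 48 (27.1%) for Hsd17b1, beside 35.6% and 28.9% of all genes.

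**Figure D4:**
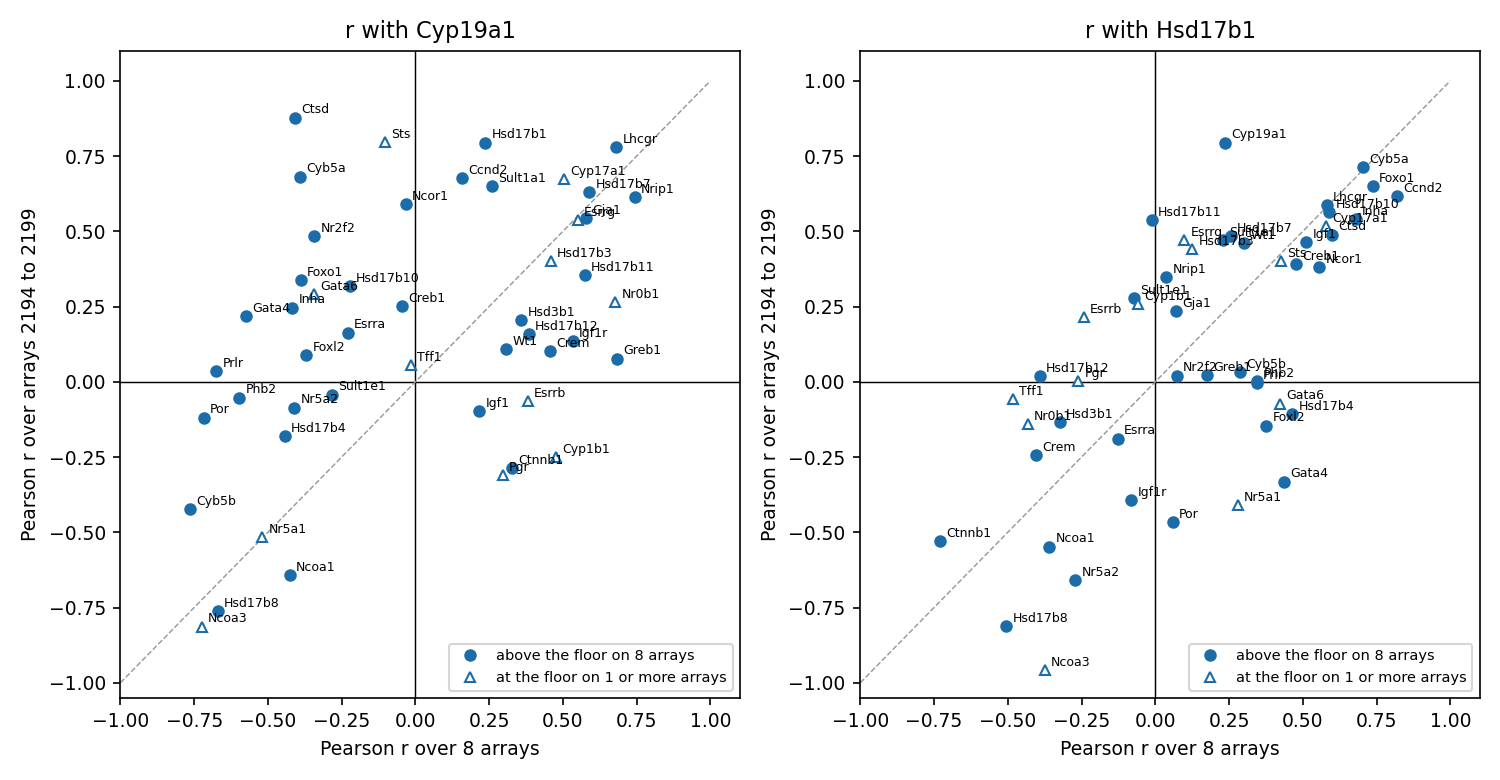
Pearson r of each measured list member with Cyp19a1 (left) and with Hsd17b1 (right), on log2 signals, over all 8 arrays (horizontal axis) and over arrays 2194 to 2199 (vertical axis). Filled circles are genes above the floor on all 8 arrays, open triangles genes at the floor on at least 1, and the dashed line marks equal r. Points at the upper left and lower right of the zero lines changed sign between both sets of arrays, among them Ctsd at -0.41 and 0.88 with Cyp19a1.

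Over the whole array, 0 of 10512 measured genes passed an adjusted p of 0.05 by Pearson's exact permutation test with Cyp19a1, with 526 positive (5%) and 327 negative (3.11%) at an unadjusted p under 0.05. The smallest adjusted p was 0.567, and 0.431 by Spearman's test. For Hsd17b1 it was also 0 of 10512, with 247 positive (2.35%) and 212 negative (2.02%) before adjustment, and the smallest adjusted p was 0.261 and 0.521 by Spearman's test. The genes named next are therefore those with the most similar pattern on these 8 arrays and no more than that.

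The gene most like Cyp19a1 was Vkorc1, the vitamin K epoxide reductase, with an r of 0.98 (unadjusted exact p = 9.92e-05, adjusted p = 0.567) and a rho of 0.98 (exact p = 0.000397). Without arrays 2076 and 2196 r was 0.97. Vkorc1 gave 5372 on array 2198, 4897 on 2195, 4762 on 2194, 4600.02 on 2199, 4393 on 2197, 4030.5 on 2074, 3946 on 2196 and 2661 on 2076. It followed the order of Cyp19a1 except that 2194 and 2199 changed places, but with an inner range of 1.24-fold in place of 4.20-fold. Next came Aldh18a1, an enzyme of proline synthesis (r 0.96), the splicing factor Rbfox2 (r 0.96), Swap70 (r 0.96) and St7l (r 0.95). Most opposite were Cramp1 (r -0.97), Srrt, which acts in RNA processing (r -0.96), and Eif2b1, a subunit of the translation factor eIF2B (r -0.92). These 8 genes had inner ranges of 1.13 to 1.78-fold. The 3 opposite ones were highest on array 2076, and the 5 like ones lowest there.

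The genes most like Hsd17b1 were Cd59b, an inhibitor of complement (r 0.93), Klhdc8a (r 0.92), the laminin chain Lama1 (r 0.91), Eef1akmt1 (r 0.91) and Abhd14b (r 0.91). Cd59b gave 17014 on array 2074, 16569 on 2194 and 13505 on 2198, and 7088 on 2196, the lowest for Hsd17b1 too. Pik3ca, the catalytic subunit of a phosphoinositide 3-kinase, ran exactly opposite to Hsd17b1 in order, with a rho of -1 (exact p = 4.96e-05) and an r of -0.97. The Pearson p of 2.48e-05 is the smallest that 40320 pairings can give, and its adjusted p was 0.261. Without arrays 2074 and 2196 r was -0.90. Pik3ca gave 9063 on array 2196 and 5993 on array 2074, an inner range of 1.23-fold. Gpc3, a proteoglycan of the cell surface (r -0.97), and Agfg1 (r -0.93) came next. Gpc3 gave 1906 on array 2196 and was under the floor on array 2074.

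**Figure D5:**
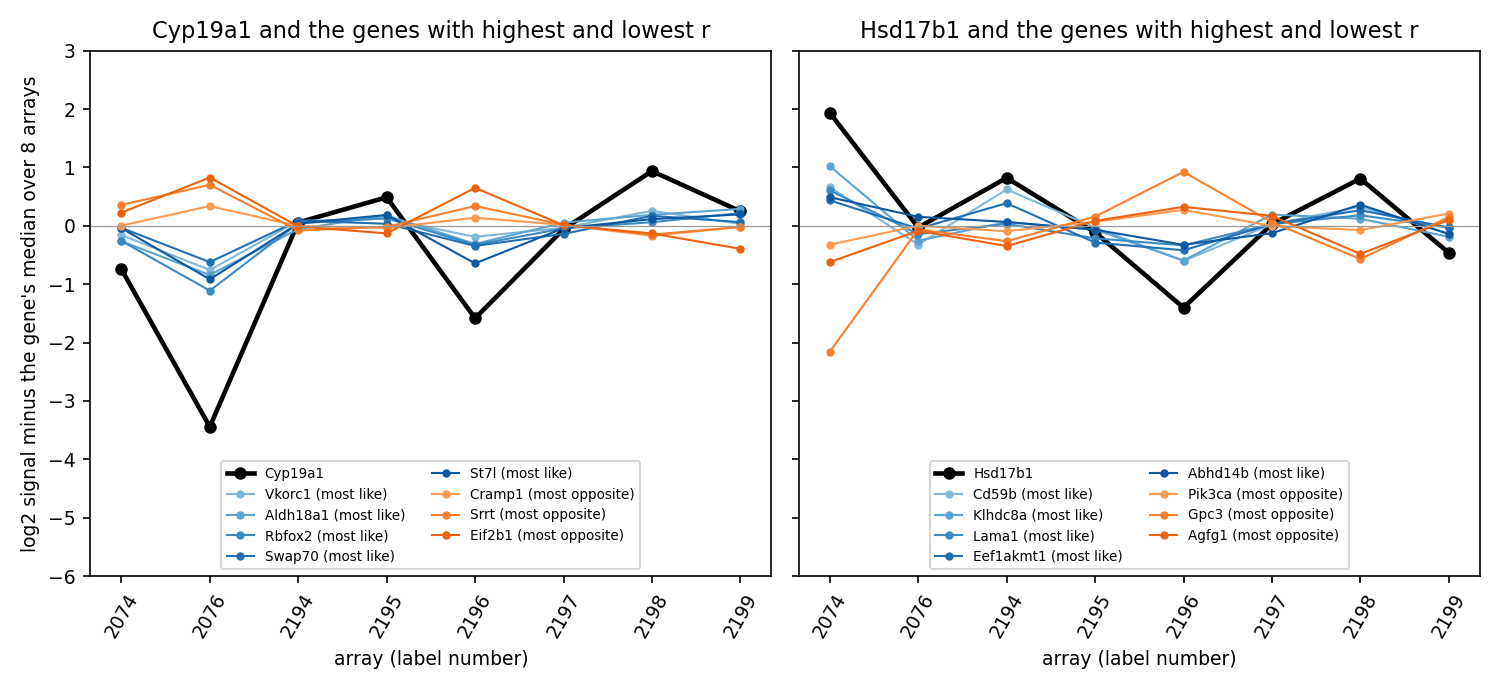
Log2 signal relative to the gene's median over 8 arrays, by array in the order of label numbers, for Cyp19a1 (left) and Hsd17b1 (right) with the 5 genes of highest and the 3 of lowest r. Lines join the arrays only to guide the eye, since the arrays have no order. Signals are drawn before the floor. Cyp19a1 and Hsd17b1 (black) swing most widely over the 8 arrays, while Gpc3 drops farthest on array 2074, where it was under the floor.

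The choice of these genes was sensitive to the measure. Of the 5 genes most like Cyp19a1, 1 was among the first 5 by Spearman's rho and 0 over arrays 2194 to 2199, and the counts for Hsd17b1 were likewise 1 and 0. Among the first 100 genes, 24 were shared with the Spearman order and 16 with arrays 2194 to 2199 for Cyp19a1, and 45 and 28 for Hsd17b1.

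A sign of RNA quality moved with Cyp19a1. The ratio of 3' to 5' signal of the actin control probe sets, which grows as RNA is broken or copied short, was 12.1 on array 2076, 11.0 on 2074, 8.08 on 2197 and 7.23 on 2196. It was 5.68 on 2194, 5.03 on 2198 and 4.67 on both 2195 and 2199. Its r with Cyp19a1 was -0.80 (exact p = 0.0119, adjusted p = 0.0952 over 8 relations) and rho -0.86 (exact p = 0.0107), so the arrays with the least Cyp19a1 signal were among those with the highest ratio. Without the 2 arrays farthest from the median ratio, 2074 and 2076, r with Cyp19a1 was -0.66 and rho -0.77 (n = 6, exact p = 0.14 and 0.103). With Hsd17b1 it had an r of 0.24 (exact p = 0.56, rho 0.33). The same ratio of the GAPDH controls ran from 5.27 to 8.81, with an r of 0.031 with Cyp19a1 (exact p = 0.943, rho -0.45). Without the 2 arrays farthest from its median, 2197 and 2199, this r was -0.52 and rho -0.77 (n = 6, exact p = 0.282 and 0.103). The signal of a cre spike-in control had an r of -0.33 with Hsd17b1 over 8 arrays (exact p = 0.394, rho -0.60) and of -0.95 without its 2 farthest arrays, 2195 and 2198 (n = 6, unadjusted exact p = 0.00556, rho -0.94). The floor had an r of 0.53 with Cyp19a1 (exact p = 0.178) and a rho of 0.81 (exact p = 0.0218). The part of the floor and of RNA quality in the Cyp19a1 signal, and of what the spike-in follows in the Hsd17b1 signal, was not tested.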

How the data were processed

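Biotin-labelled total RNA was hybridised to 8 arrays, 1 per sample, per the labels. The authors deposited linear signal intensity, for which the submitters' processing notes name MAS5 without a version. Trimmed by 2% at each end, the array means were 1500.5 to 1500.6. The arrays were then brought to 1 median, taken over probe sets that exceeded the median of every array and excluding 57 controls, and put on the log2 scale. Values under the 40th percentile were set to it for ranges and correlations, and signals are printed before that step. A gene was measured when a probe set exceeded the array median on at least 2 arrays, and the brightest stood for the gene. Other probe sets of a list gene could give another range or order, as for Gata6, Nr5a2, Phb2, Ncor1, Por and Ctnnb1. No detection calls were used, so weak signals were recognised from rank alone.

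Gene names came from the platform annotation, which can be old. It gave 1 symbol to 20826 non-control probe sets and several to 436, which were left out, and 20758 were found in the gene table of the GRCr8 assembly, used for names only. Correlations used two-sided exact permutation tests over all 40320 pairings of 8 arrays, or 720 of 6 (scipy 1.17.1, numpy 2.4.6, Python 3.11.15), with Benjamini-Hochberg adjustment. Only the correlation step was tested on simulated data. The labels gave no groups, so no group was compared, and the number of arrays limits precision. Planned correlations of Esr2 were not computed, since it was under the floor on all arrays. Named are all probe sets of the 3 genes, the 5 highest and 3 lowest genes by r with each, and per list the 3 widest and 1 narrowest. Por, Hsd17b3, Gata4, Cyb5b, Nrip1, Ncoa3, Ctnnb1 and Ccnd2 were described after their values were seen. Genes and lists were chosen with earlier results of these data known. Alternatives are given in the closing section.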

Additional observations from a re-analysis of the deposited data

Results flagged for a closer look

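On 4 of 34 probe sets examined, 1 array lay far from the other 7 by Dixon's ratio at its 95% critical value for 8 arrays. Chance marks about 1 in 20 sets drawn at random. Most sets examined here were chosen by their inner range or their r, so that rate need not hold for them. Hsd3b1, which makes progesterone, gave 400944 on array 2195 and 185596 to 255129 on the others. Array 2195 also had the highest floor, 471. The nuclear receptor Nr5a2 gave 29562 on array 2194 and 39019 to 48582 on the others. Its other probe sets gave 16758 and 945 on array 2194 and were lowest elsewhere, at 8977 on array 2195 and 679 on array 2199. Among the genes most like Cyp19a1, Rbfox2 gave 350.1 on array 2076 and 603 to 880.2 on the others, and Vkorc1 gave 2661.3 there and 3946 to 5372 on the others. Array 2076 is the one lowest for Cyp19a1 itself, and both genes were chosen for following Cyp19a1.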

How the results depend on the processing

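The number of arrays and the strength of signal limit these results. The inner range of Cyp19a1 (log2 2.07) was 0.55 over arrays 2194 to 2199, a set chosen after earlier results of these arrays were known, and its full range was 4.38, while that of Hsd17b1 (log2 1.28) was 3.34. With the mean of its 3 probe sets that of Cyp19a1 was 1.13, or 2.19-fold in place of 4.20-fold. Leaving out 1 array at a time gave 1.23 to 2.07 for Cyp19a1 and 0.93 to 1.28 for Hsd17b1. The correlation of both genes (r 0.24) turned to -0.52 without the 2 arrays farthest from the median, and was 0.052 to 0.40 with 1 array left out. It kept its sign and its side of the threshold under the other 17 alternatives, among them the second probe set of Cyp19a1 (added after seeing the data), no scaling and quantile normalization. Agreement of the Cyp19a1 probe sets (r 0.91) gave 0.69 over arrays 2194 to 2199, 0.82 without the 2 farthest arrays and 0.72 to 0.96 with 1 array left out, not passing the threshold without array 2076. It passed under the other 13 alternatives. The cause of these differences was not tested. Under a filter that kept only genes exceeding the median of every array, the count of members at 2-fold was 2 in place of 4 for receptors and cofactors and 2 in place of 4 for promoter factors, with fewer genes tested. Over all 6 lists it was then 16 of 36 (44.4%), beside 19.3% of all genes, and 23 of 58 (39.7%) beside 22.2% with no filter. With the floor at the 25th percentile or no floor it was 24 of 49 (49%) beside 39.6%, a smaller gap than 46.9% beside 29.8%. No paired analysis was possible because the arrays have no groups. Esr2 has no range or correlation, since its signal was under the floor on all 8 arrays.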
